A study of Mus musculus with 12 samples.

Results

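The nuclear genes for oxidative phosphorylation were described across 3 genotypes of mouse bone marrow LSK cells. The genes were chosen by symbol alone: the Nduf genes of complex I, Sdha to Sdhd, the Uqcr genes, 12 Cox genes and all symbols that begin with Atp5, with pseudogene symbols left out. The rule found 79 gene identifiers under 78 symbols among 55487 listed genes. Of these, 78 passed the filter on low counts, within 16649 genes tested. The identifier left out is a second Atp5o entry, a read-through model with 0 counts in all 12 libraries. By complex, the tested genes are 36 of complex I, 4 of complex II, 8 of complex III, 13 of complex IV and 17 of complex V. Ndufa4 was placed with complex IV, where its protein is found. Atp5s was kept with complex V by its symbol, although its product is not a subunit of the enzyme.

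Oxidative phosphorylation couples electron transport in the inner mitochondrial membrane to the making of ATP. Complexes I and II pass electrons to ubiquinone, complex III moves them to cytochrome c, complex IV gives them to oxygen, and complex V uses the proton gradient to make ATP. Most subunits are encoded in the nucleus and a few in the mitochondrial genome, so a complex depends on both sets of genes. Haematopoietic stem cells are known for relying largely on glycolysis, and their progeny use oxidative phosphorylation more. The zinc finger protein YY1 is known to bind promoters of many mitochondrial genes and has been described as a partner of the coactivator PGC-1alpha, the product of Ppargc1a.

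RNA sequencing covered 12 libraries, 4 each of Yy1+/+, Yy1-/- and Yy1-/- Smc3+/-. Yy1+/+ served as the wild type, and Smc3, named in the third genotype, encodes a subunit of the cohesin ring. LSK cells lack lineage markers and carry Sca1 and c-Kit, a sort that holds stem cells and early progenitors. Libraries came from the SMART-Seq V4 kit, which amplifies cDNA from small amounts of RNA and does not keep the strand. The sources used here give no age, sex, Cre driver, sorting day or number of mice for a library, so p-values measure the spread between libraries, which may be technical. In bulk RNA, fewer cells of a type and less RNA per cell cannot be told apart.

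YY1 is the factor removed, and some start regions that hold its letters are shown first. The RefSeq table of GRCm38.p6 holds a window of 250 bases before and 50 bases after the start for 66 of the 78 genes, with 2 windows for 5 of them. Letters of the YY1 motif lie in a window of 17 members. In 8 genes the letters AAGATGGC lie along the gene within its first 50 bases, and the ATG inside them is the annotated start codon in all 8. These 8 were picked from the 17 after their fold changes were seen. The stretches below run 5′ to 3′ along the gene, and the capitals mark these letters.
Ndufa3 (chr7:3617384-3617413, plus strand): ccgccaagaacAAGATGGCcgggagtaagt
Ndufc1 (chr3:51408915-51408944, minus strand): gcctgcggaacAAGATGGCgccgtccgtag
Atp5j2 (chr5:145191500-145191529, minus strand): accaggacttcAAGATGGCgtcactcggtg
Ndufs7 (chr10:80249462-80249491, plus strand): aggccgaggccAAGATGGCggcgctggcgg
Ndufa9 (chr6:126849097-126849126, minus strand): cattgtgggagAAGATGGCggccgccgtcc
Ndufs6 (chr13:73328433-73328462, minus strand): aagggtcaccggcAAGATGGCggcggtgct
Ndufs4 (chr13:114388045-114388074, minus strand): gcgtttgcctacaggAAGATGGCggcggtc
Ndufb8 (chr19:44555393-44555422, minus strand): tgaaccgcggagaaggtgAAGATGGCtgcc

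The libraries held between 38671354 and 69086104 summed expected counts, and between 1.24% and 1.70% of the reads of a library came from the nuclear oxidative phosphorylation genes. Yy1 mRNA lay between 33.9 and 41.3 CPM (counts relative to library size, scaled by TMM factors) in Yy1+/+, between 0.407 and 12.2 in Yy1-/- and between 0.772 and 4.45 in Yy1-/- Smc3+/-. Smc3 mRNA was not lower in the libraries labelled Smc3+/-, with 254 to 344 CPM against 200 to 306 in Yy1-/- and 160 to 214 in Yy1+/+. All 10 LSK markers were detected in every genotype, but 7 were called lower and 1 higher in Yy1-/-. Among all tested genes 18.8% were called lower and 16.3% higher. Kit ran from 422 to 981 CPM in Yy1+/+ and from 100 to 373 in the other libraries. The summed level of 12 monocyte markers was 6610 and 4490 CPM in Yy1-/- replicates 1 and 2, and between 517 and 1530 CPM in the other 10 libraries. Gene by gene, 9 of the 12 (75%) were called higher in Yy1-/- and 0 lower, beside the 16.3% higher of all tested genes. In Yy1-/- Smc3+/- 5 of the 12 (41.7%) were called higher and 0 lower, beside 13.1% higher of all tested genes. None of these 12 markers was at 0 in all libraries of a genotype.

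Some markers of other blood cells also differed between the genotypes. The summed level of 12 erythroid markers was 1700 to 2580 CPM in Yy1+/+, 189 to 1000 in Yy1-/- and 235 to 624 in Yy1-/- Smc3+/-. For 9 megakaryocyte markers it was 697 to 945, 174 to 217 and 98.6 to 237 CPM, so both sums were lower in every mutant library. The 2 of 12 erythroid genes called lower in Yy1-/- (16.7%) lie near the 18.8% of all tested genes. Of the megakaryocyte genes 5 of 8 tested were called lower (62.5%). The sum of 13 neutrophil markers overlapped between genotypes and was highest in Yy1-/- Smc3+/- replicate 3, at 17600 CPM. Of these 4 of 13 (30.8%) were called higher in Yy1-/-, beside 16.3% of all tested genes. Of the T or NK cell markers 6 of 11 tested genes (54.5%) rose in Yy1-/-. Their summed level, 50.1 to 200 CPM, was still not above the 128 to 270 of Yy1+/+. Of the B or plasma cell markers 0 of 10 rose and 1 fell (10%), below the 16.3% and 18.8% of all tested genes. None of the erythroid, neutrophil or B cell markers was at 0 in all libraries of a genotype, while Gp6 was at 0 in Yy1+/+ and Yy1-/- Smc3+/-, and Cd8b1 in Yy1+/+. The part of these markers in the results below was not tested.

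In Yy1+/+ the genes covered a wide range of levels per length. The median over the 78 genes was 352 TPM (a level per transcript length). Atp5b, the catalytic beta subunit of ATP synthase, was highest at 1500 ± 119 TPM (SD, n = 4). Cox4i1 followed at 1100 ± 59.4 and Cox8a at 1070 ± 133, and these values of Cox4i1 and Cox8a differ by less than their spread. Cox7a1, the heart and muscle isoform of a complex IV subunit, was lowest at 2.38 ± 0.972 TPM and was the only member under 1 CPM in every genotype.

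The comparison of Yy1-/- with Yy1+/+ asks how these genes differ in LSK cells that have lost Yy1. Of the 78 genes, 44 rose and 4 fell (edgeR quasi-likelihood test, Benjamini-Hochberg adjusted p under 0.05). Among all tested genes 16.3% were called higher and 18.8% lower. The median log2 fold change of the members was 0.50, against 0.01 over all tested genes. In 32 members every Yy1-/- library lay above every Yy1+/+ library, and in 4 every one lay below, where the shares of all tested genes were 13.4% and 17.5%. The rises were moderate: the highest was Uqcrq at a log2 fold change of 1.40 and the lowest value was Sdha at -0.79. Without Yy1-/- replicates 3 and 4 and Yy1-/- Smc3+/- replicate 3, which kept the most Yy1 reads, 28 members rose and 4 fell. Without Yy1-/- replicates 1 and 2, which held the most monocyte marker reads, 41 rose and 1 fell. The shares of all tested genes called in these smaller fits are not given here, so the counts cannot be weighed against them.

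**Figure D1:**
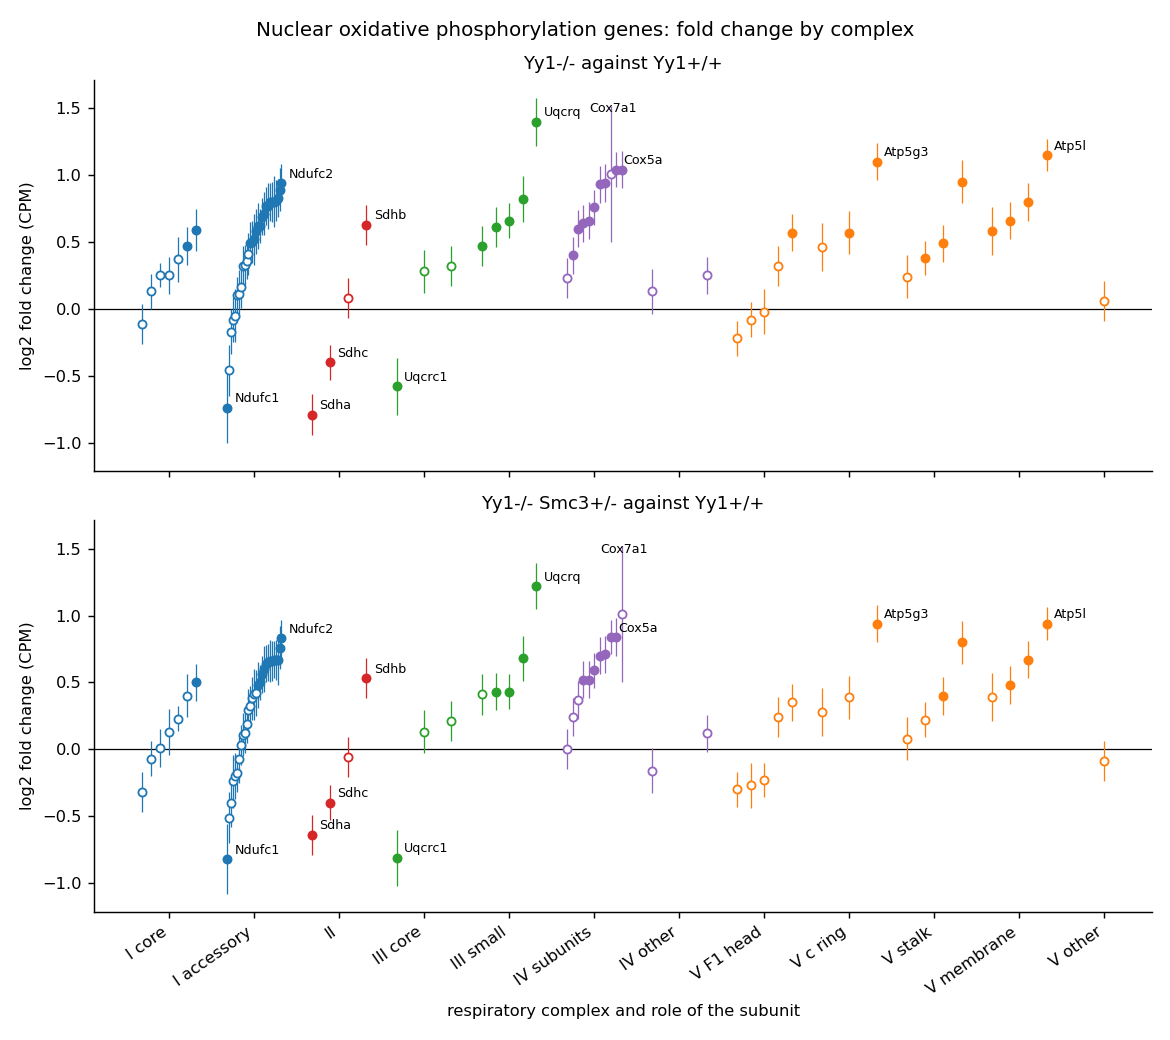
Log2 fold change of each of the 78 genes against Yy1+/+ (y axis, CPM scale), grouped by respiratory complex and role (x axis), for Yy1-/- (upper panel) and Yy1-/- Smc3+/- (lower panel). Filled points passed the edgeR test, open points did not, and bars are standard errors. In Yy1-/- the small subunits of complexes III and IV lie above 0, while Sdha, Sdhc, Uqcrc1 and Ndufc1 are the 4 filled points below 0.

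The libraries of a genotype moved as blocks. Yy1-/- replicate 1 was the highest of its genotype for 59 of 78 members and replicate 2 the lowest for 72. Both of these libraries were high in monocyte markers. In Yy1+/+, replicate 2 was highest for 52 members and replicate 3 lowest for 60. The summed level of all members was 11534 to 14814 CPM in Yy1+/+, 12862 to 18045 in Yy1-/- and 13225 to 15590 in Yy1-/- Smc3+/-, so the ranges overlap.

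The members are short, and short transcripts as a whole moved up. The median effective length, the number of start positions a fragment can have in a transcript, was 412 bases for the members and 2190 for all tested genes. Across the 16649 tested genes Spearman's rho between this length and the log2 fold change was -0.22 in Yy1-/- and -0.17 in Yy1-/- Smc3+/-, and across the 78 members -0.41 and -0.39. These are descriptions across genes, which share libraries and are not independent. Under 500 bases, 48 members had a median log2 fold change of 0.63 in Yy1-/- and 72.9% were called higher. The 1361 other genes under 500 bases had a median of 0.46, and 26.7% of them were called higher. From 500 to 1000 bases the medians were 0.28 for 14 members and 0.29 for the other genes, with 35.7% and 25.3% called higher and 0% and 11.2% lower. From 1000 to 2000 bases 13 members had a median of 0.32 and the other genes 0.10, with 30.8% and 19.3% called higher.

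**Figure D2:**
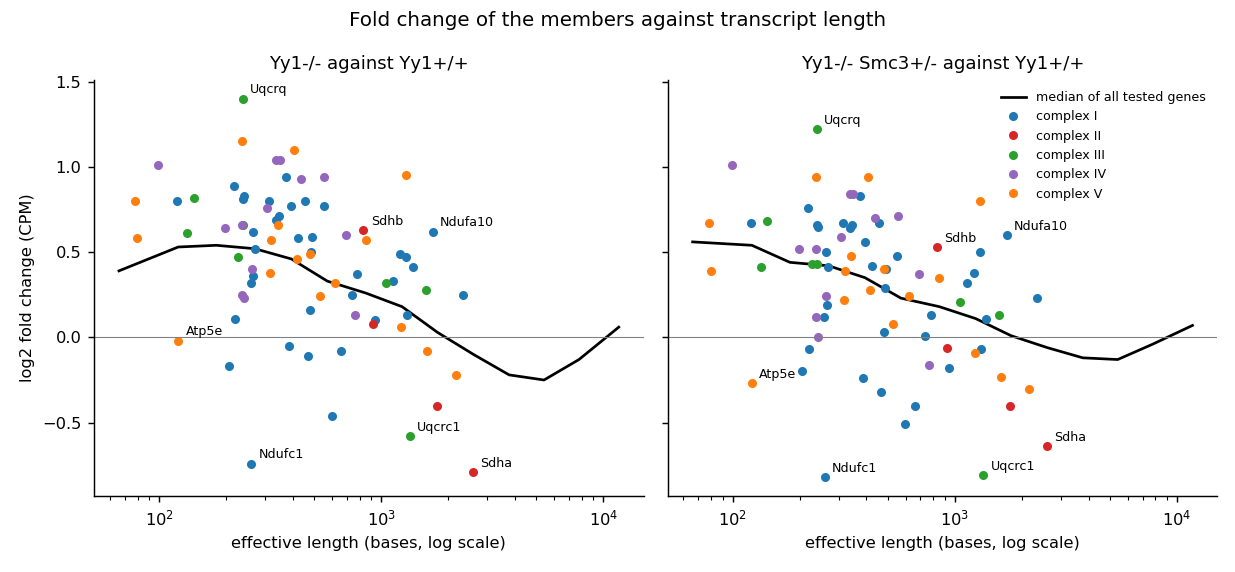
Log2 fold change (y axis) against effective length in bases (x axis, log scale) for the 78 members, coloured by complex, in Yy1-/- (left) and Yy1-/- Smc3+/- (right) against Yy1+/+. The black line joins the medians of all tested genes in length bins. It lies above 0 for short transcripts, and Uqcrq and Sdhb lie above it while Sdha, Uqcrc1 and Ndufc1 lie below it.

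With the trend of fold change on length removed from the fit, 23 members were called higher and 12 lower in Yy1-/-, beside 17.7% and 19.2% of all tested genes, and the median was 0.12. Of the 44 members that rose, 21 were also called higher in this fit, and the 4 that fell were called lower in it as well. On log2(TPM + 1) with limma, 28 members were higher and 9 lower, where 1445 of all 16649 tested genes were higher and 4327 lower. The median in that fit was 0.24 for the members and -0.18 for all tested genes. The removed trend takes out whatever short genes share, of any origin, and the cause of the trend was not tested. The medians by library show the same pairing. In Yy1-/- replicates 1 to 4 the median log2 ratio to the Yy1+/+ mean was 0.75, 0.17, 0.62 and 0.47 for the members. It was 0.59, 0.24, 0.61 and 0.42 for the other genes under 500 bases. Yy1-/- replicate 2 was therefore low in both sets, and only in replicate 1 was the median of the members higher by over 0.1. These member medians cover all 78 genes, of which 48 are under 500 bases, so the 2 sets differ in length. Within genes under 500 bases the median log2 fold changes in Yy1-/- were 0.63 for members and 0.46 for the others.

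**Figure D3:**
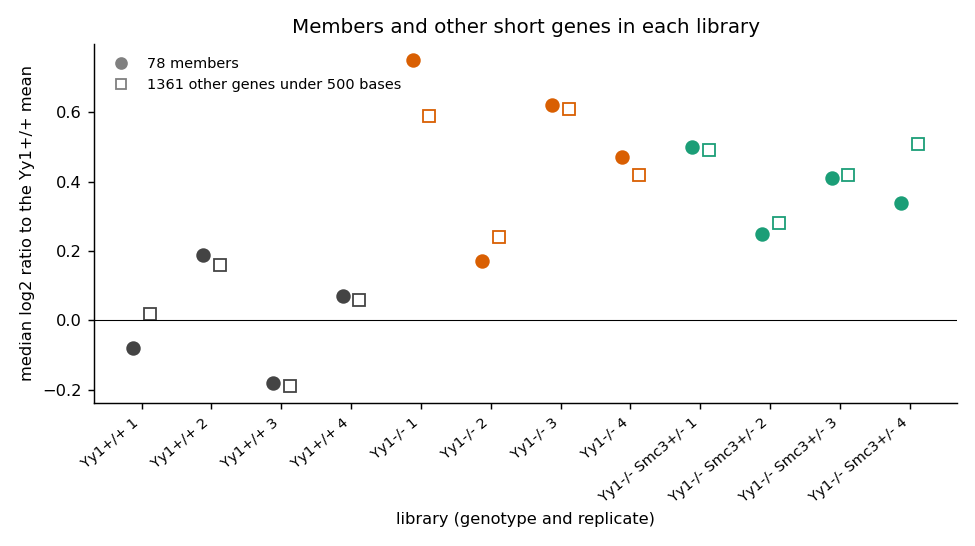
Median log2 ratio to the Yy1+/+ mean (y axis) in each of the 12 libraries (x axis), for the 78 members (filled circles) and for 1361 other genes with an effective length under 500 bases (open squares). The 2 medians move together, from -0.18 and -0.19 in Yy1+/+ replicate 3 to 0.75 and 0.59 in Yy1-/- replicate 1. Of the 78 members, 48 are under 500 bases.

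Complex I, the NADH dehydrogenase, has a core of subunits that bind flavin and iron-sulphur clusters and a larger set of accessory subunits around it. Of its 36 genes 19 rose and 1 fell in Yy1-/-, with a median log2 fold change of 0.48. Accessory genes made up most of the rises, with 17 of 29 called higher and 1 lower (median 0.52), against 2 of 7 core genes (median 0.25). The 4 with the smallest p were Ndufc2, Ndufa6, Ndufs5 and Ndufa1. Ndufc2 read 78.5, 93.1, 73.4 and 94.0 CPM in Yy1+/+, 193, 134, 179 and 142 in Yy1-/- and 170, 138, 149 and 145 in Yy1-/- Smc3+/-. All libraries of both mutant genotypes lay above all of Yy1+/+, and Ndufc2 rose by 0.94 ± 0.14 SE on the log2 scale in Yy1-/- (edgeR adjusted p = 4e-04). Ndufs5 rose by 0.89 ± 0.16 and Ndufa6 by 0.83 ± 0.14 (edgeR adjusted p = 0.000913 and 0.000637). Ndufa1, an X-linked accessory gene with an effective length of 120 bases, rose by 0.80 (edgeR adjusted p = 0.001), but its value was 0.19 with the length trend removed (edgeR adjusted p = 0.143).

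Among the core genes of complex I, Ndufv1, which encodes the subunit that binds NADH and flavin, rose from a mean of 193 ± 34.4 to 267 ± 27.6 CPM (SD, n = 4; log2 fold change 0.47, edgeR adjusted p = 0.0227), and its libraries overlap. Ndufs8, an iron-sulphur subunit, rose by 0.59 (edgeR adjusted p = 0.0123), and with the length trend removed it was not called, at 0.21 (edgeR adjusted p = 0.0796). Both calls were lost without Yy1-/- replicate 1, at 0.43 (edgeR adjusted p = 0.0595) and 0.45 (edgeR adjusted p = 0.0511), and both were lost when the libraries that kept most Yy1 reads were left out, at 0.34 and 0.58 (edgeR adjusted p = 0.196 and 0.0611). That of Ndufv1 was also lost without Yy1-/- replicates 3 or 4 or Yy1+/+ replicates 1, 3 or 4, and on log2(TPM + 1). Ndufs1, Ndufs3, Ndufs7 and Ndufv2 were not called, with log2 fold changes of 0.25, 0.25, -0.11 and 0.37. Ndufs1, with an effective length of 2339 bases, still showed no overlap: its libraries read 141 to 154 CPM in Yy1+/+, below the 173 to 190 of Yy1-/-. With the length trend removed it was called higher at 0.32 (edgeR adjusted p = 0.00807) and Ndufs7, next to the quinone site, lower at -0.50 (edgeR adjusted p = 0.0027).

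Ndufc1, an accessory gene of complex I on chromosome 3 (51404677-51408988, GRCm38), was the only gene of this complex that fell. Its level was 29.5, 35.2, 26.4 and 33.1 CPM in Yy1+/+, 12.9, 13.7, 23.5 and 24.2 in Yy1-/- and 15, 16.2, 25.6 and 13.4 in Yy1-/- Smc3+/-. No mutant library reached the lowest Yy1+/+ library, and the 3 libraries with the most residual Yy1 reads (Yy1-/- replicates 3 and 4 and Yy1-/- Smc3+/- replicate 3) were the 3 highest of the mutants, which was noticed after the values were seen and carries no test. Ndufc1 fell by 0.74 on the log2 scale in Yy1-/- (SE 0.26, edgeR adjusted p = 0.0371). The call was lost without Yy1+/+ replicates 1, 2 or 4 or Yy1-/- replicates 1 or 2, with edgeR adjusted p-values of 0.0614, 0.0739, 0.0809, 0.084 and 0.0944. It was also lost with the older quasi-likelihood method of edgeR (adjusted p = 0.0517) and without both Yy1-/- replicates 1 and 2, at -0.41 (edgeR adjusted p = 0.264). The value was -1.25 with the length trend removed (edgeR adjusted p = 0.00219). Its name partner Ndufc2, which encodes the other subunit of the C series, went the opposite way in the same libraries.

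Complex II, succinate dehydrogenase, links the citric acid cycle to the respiratory chain and is encoded wholly in the nucleus. Its 4 genes did not move together: Sdhb rose, Sdha and Sdhc fell, and Sdhd was not called. Sdha, on chromosome 13 (74322254-74350280, GRCm38), encodes the flavoprotein that oxidises succinate. It read 469, 643, 525 and 515 CPM in Yy1+/+, 249, 282, 347 and 369 in Yy1-/- and 329, 369, 384 and 301 in Yy1-/- Smc3+/-. The lowest Yy1+/+ library lay above every mutant library. Sdha fell by 0.79 on the log2 scale in Yy1-/- (SE 0.15, edgeR adjusted p = 0.00158), and it was called lower under all 24 alternatives, with values from -1.07 to -0.62.

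Sdhb, on chromosome 4 (140961203-140979193, GRCm38), encodes the iron-sulphur subunit that takes electrons from Sdha. Its levels were 186, 277, 180 and 206 CPM in Yy1+/+, 379, 300, 354 and 285 in Yy1-/- and 342, 288, 299 and 297 in Yy1-/- Smc3+/-. Every mutant library lay above the highest Yy1+/+ library, and Sdhb rose by 0.63 ± 0.15 SE in Yy1-/- (edgeR adjusted p = 0.00583). It was called higher in Yy1-/- under all 24 alternatives, with values from 0.36 to 0.78. The ratio of Sdha to Sdhb CPM within a library was 2.32 to 2.91 in Yy1+/+, 0.658 to 1.3 in Yy1-/- and 0.961 to 1.28 in Yy1-/- Smc3+/-. This ratio was looked at after the 2 genes were seen to move apart, and it carries no test. Both genes are longer than most members, with effective lengths of 2590 and 832 bases.

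The membrane anchors of complex II differed less. Sdhc read 96.3, 122, 94.1 and 114 CPM in Yy1+/+ and 86.9, 75.8, 76.0 and 84.3 in Yy1-/-, with 89.9, 87.2, 77.6 and 68.0 in Yy1-/- Smc3+/-. The groups did not overlap, and Sdhc fell by 0.40 on the log2 scale in Yy1-/- (SE 0.13, edgeR adjusted p = 0.0299). That call was lost without Yy1+/+ replicates 2 or 4, without Yy1-/- replicates 2 or 3 without both replicates 1 and 2 and when the libraries that kept most Yy1 reads were left out, with edgeR adjusted p-values from 0.0597 to 0.107. Sdhd ranged from 229 to 363 CPM in Yy1+/+ and from 243 to 316 in Yy1-/-, and its log2 fold change was 0.08, not called (edgeR adjusted p = 0.73).

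**Figure D4:**
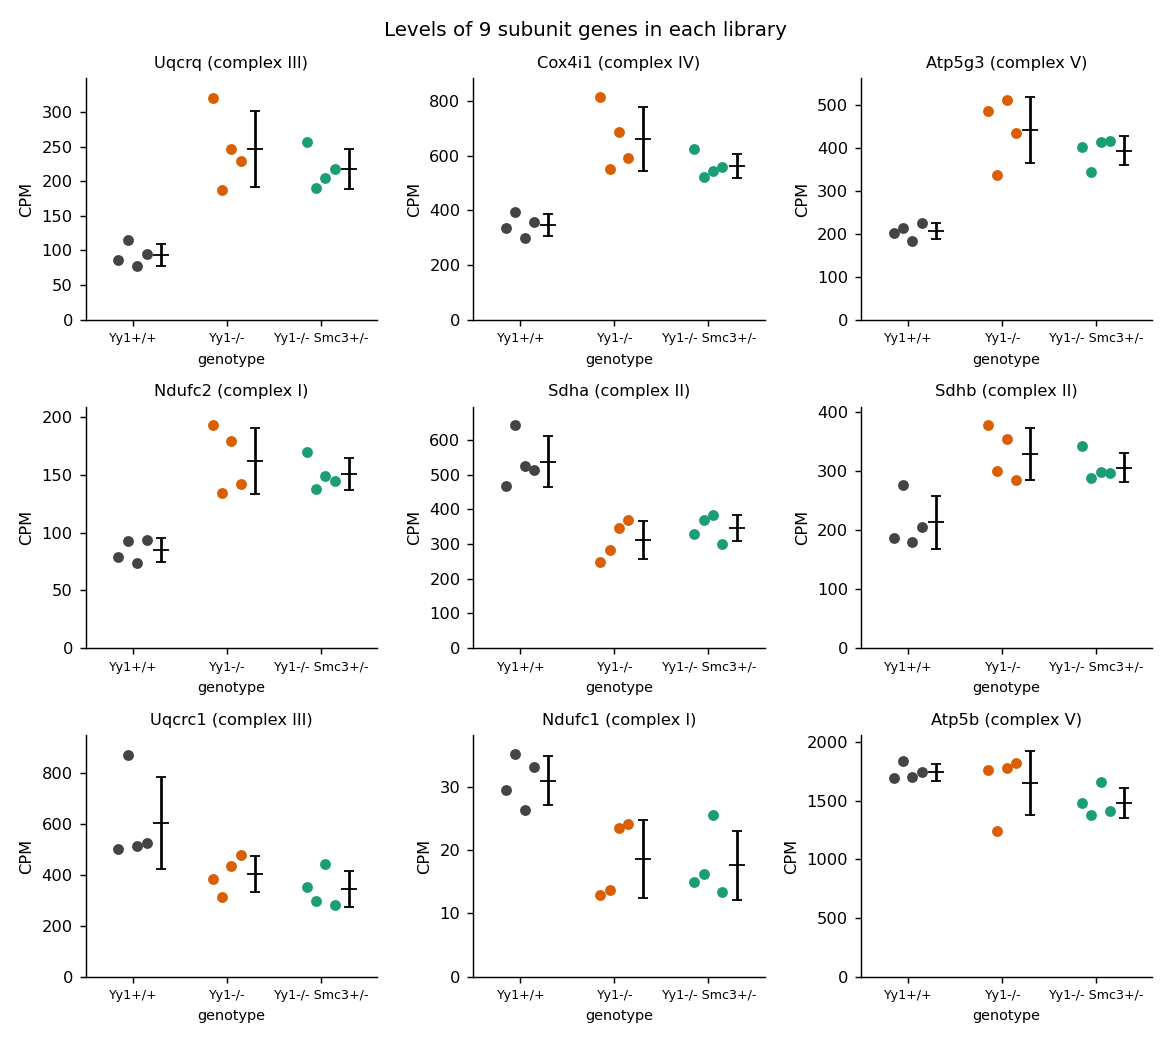
CPM (y axis, from 0) of 9 subunit genes in each library (points) by genotype (x axis), with the mean and SD of 4 libraries in black. Uqcrq, Cox4i1, Atp5g3, Ndufc2 and Sdhb are higher and Sdha lower in every library of both mutant genotypes than in any Yy1+/+ library, and Atp5b overlaps with Yy1+/+ in Yy1-/- but lies lower in all libraries of Yy1-/- Smc3+/-. The high point of Uqcrc1 in Yy1+/+ is replicate 2 at 871 CPM.

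Complex III, the cytochrome bc1 complex, has large core proteins, the Rieske iron-sulphur protein and several small subunits. All 5 small subunit genes rose in Yy1-/- (median 0.66), and of the 3 other members 0 rose and 1 fell (median 0.28). Cyc1, a nuclear gene of this complex outside the symbol rule, was not called, at 0.33 (edgeR adjusted p = 0.0827). Uqcrq, on chromosome 11 (53427922-53430831, GRCm38), encodes a small subunit next to cytochrome b and had the largest rise of all members. Its levels were 86.4, 115, 77.3 and 94.5 CPM in Yy1+/+, 320, 188, 247 and 230 in Yy1-/- and 257, 190, 205 and 218 in Yy1-/- Smc3+/-. The groups stood well apart. Uqcrq rose 2.64-fold, or 1.40 ± 0.18 SE on the log2 scale (edgeR adjusted p = 9.7e-05). With the length trend removed the value was 0.87 (edgeR adjusted p = 5.9e-05), and under the alternatives it ranged from 0.87 to 1.52.

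The other small subunits of complex III rose less. Uqcr11, Uqcrh and Uqcr10 rose by 0.82, 0.66 and 0.61 (edgeR adjusted p = 0.00288, 0.00237 and 0.00757), but with the length trend removed these values were 0.22, 0.12 and -0.003 and none of the 3 was called. Uqcrc1, a core protein on chromosome 9 (108936633-108949623, GRCm38), went the other way. It read 502, 871, 512 and 525 CPM in Yy1+/+, 383, 314, 432 and 477 in Yy1-/- and 353, 296, 440 and 281 in Yy1-/- Smc3+/-. All mutant libraries were lower than all of Yy1+/+, in which replicate 2 stood far above the rest. Uqcrc1 fell by 0.58 on the log2 scale in Yy1-/- (SE 0.21, edgeR adjusted p = 0.0421). Without Yy1+/+ replicate 2 the value was -0.35 (edgeR adjusted p = 0.125), and without both Yy1-/- replicates 1 and 2 it was -0.44 (edgeR adjusted p = 0.223). The call was lost under 8 of 24 alternatives in all, each time below 0. The partner core gene Uqcrc2 and the Rieske gene Uqcrfs1 were not called, at 0.28 and 0.32 (edgeR adjusted p = 0.191 and 0.115).

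Complex IV, cytochrome c oxidase, takes its catalytic subunits from the mitochondrial genome and the surrounding ones from the nucleus. Of 13 genes 9 rose and 0 fell in Yy1-/-, and the median of 0.66 was the highest of the 5 complexes. Cox5a and Cox7a2 each rose by 1.04 (SE 0.13 and 0.14, edgeR adjusted p = 0.000109 and 0.000124). Cox4i1, which encodes the largest nuclear subunit, read 335, 394, 301 and 357 CPM in Yy1+/+, 816, 552, 686 and 593 in Yy1-/- and 625, 522, 543 and 560 in Yy1-/- Smc3+/-. These groups did not overlap, and Cox4i1 rose by 0.93 ± 0.14 SE (edgeR adjusted p = 0.000312). Cox5b rose by 0.94 ± 0.14 (edgeR adjusted p = 0.000371). In the fit without the length trend, Cox5a, Cox7a2, Cox4i1 and Cox5b were called higher too, at 0.56, 0.56, 0.51 and 0.58.

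The 3 genes of the Cox7a family differed. Cox7a2, the isoform of most tissues, rose from 89.0 ± 4.68 to 183 ± 33.8 CPM (SD, n = 4). Cox7a2l, whose product joins complexes III and IV into supercomplexes, read 136 ± 32.7 and 149 ± 22.5 CPM and was not called (0.13, edgeR adjusted p = 0.576). Cox7a1 stayed near detection, with 0.163 ± 0.0613 CPM in Yy1+/+ and 0.331 ± 0.0983 in Yy1-/-, and its log2 fold change of 1.01 ± 0.51 SE was not called (edgeR adjusted p = 0.128).

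Complex V, ATP synthase, has a catalytic F1 head, a rotating ring of c subunits, a peripheral stalk and small membrane subunits. Of its 17 genes 10 rose and 0 fell in Yy1-/- (median 0.49). The parts differed in their counts: 4 of 4 membrane subunit genes rose (median 0.73), 3 of 4 stalk genes (0.43), 2 of 3 c ring genes (0.57) and 1 of 5 F1 genes (-0.02). The shorter the genes of a part, the higher was its median: the median effective lengths were 158, 504, 407 and 852 bases, and the medians with the length trend removed were 0.16, -0.01, 0.08 and -0.11. Atp5l, subunit g, rose by 1.15 ± 0.12 SE (edgeR adjusted p = 3.6e-05), the smallest p of all members. Atp5f1, subunit b of the stalk with an effective length of 1294 bases, rose by 0.95 ± 0.16 (edgeR adjusted p = 0.000765). Both were called higher in Yy1-/- under all 24 alternatives. Atp5mpl, a small membrane subunit, rose by 0.80 (edgeR adjusted p = 0.00079), but its value was 0.13 with the length trend removed (edgeR adjusted p = 0.409).

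The 3 genes for subunit c encode the same mature protein with different targeting peptides. Atp5g3 read 201, 214, 183 and 225 CPM in Yy1+/+, 487, 338, 511 and 434 in Yy1-/- and 402, 344, 413 and 417 in Yy1-/- Smc3+/-. The groups were fully apart, and Atp5g3 rose by 1.10 ± 0.14 SE (edgeR adjusted p = 9.8e-05). Atp5g1 rose by 0.57 with overlapping libraries (edgeR adjusted p = 0.0136), a call lost without Yy1-/- replicate 1 (edgeR adjusted p = 0.0511) and with the length trend removed (0.08, edgeR adjusted p = 0.546), and Atp5g2 was not called at 0.46 (edgeR adjusted p = 0.0624). In the F1 head the gamma subunit gene Atp5c1 rose by 0.57 (edgeR adjusted p = 0.00845). That call was lost on log2(TPM + 1), at 0.28 (limma adjusted p = 0.0681), and when the libraries that kept most Yy1 reads were left out (edgeR adjusted p = 0.0557). The alpha, beta, delta and epsilon genes Atp5a1, Atp5b, Atp5d and Atp5e were not called, at -0.22, -0.08, 0.32 and -0.02. Atp5b, the most abundant member, read 1690 to 1840 CPM in Yy1+/+, and its Yy1-/- libraries read 1240 to 1820. Atp5e has an effective length of only 122 bases and was called lower with the length trend removed, at -0.65 (edgeR adjusted p = 0.00153).

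The comparison of Yy1-/- Smc3+/- with Yy1+/+ shares its controls with the one above, so the 2 sets of values are given side by side and not as separate evidence. In Yy1-/- Smc3+/- 32 of the 78 members rose and 4 fell (edgeR adjusted p under 0.05), where 13.1% of all tested genes were called higher and 16.7% lower. The median was 0.38. In 35 members all libraries lay above Yy1+/+ and in 5 all lay below, beside 14.7% and 17.6% of all tested genes. By complex, 14 of 36, 1 of 4, 4 of 8, 7 of 13 and 6 of 17 genes of complexes I to V rose, with medians of 0.35, -0.23, 0.42, 0.52 and 0.35. With the length trend removed 22 members were called higher and 15 lower, beside 15.1% and 17.9% of all tested genes, with a median of 0.10.

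The genes at both ends were the ones already named. Uqcrq rose by 1.22 ± 0.17 SE (edgeR adjusted p = 0.00026), Atp5g3 and Atp5l by 0.94 each (edgeR adjusted p = 0.000316 and 0.00016), and Sdhb by 0.53 (edgeR adjusted p = 0.0181). Ndufc1, Uqcrc1, Sdha and Sdhc fell by 0.82, 0.81, 0.64 and 0.40 on the log2 scale (edgeR adjusted p = 0.0277, 0.0103, 0.00654 and 0.0342). Sdha and Uqcrc1 were called lower under all 24 alternatives of this comparison, while Sdhb lost its call under 4, Sdhc under 5 and Ndufc1 under 5. Without Yy1+/+ replicate 2 the values of Ndufc1 and Sdhc were -0.76 and -0.33 (edgeR adjusted p = 0.0584 and 0.0795), without Yy1+/+ replicate 4 -0.79 and -0.37, and without Yy1-/- Smc3+/- replicate 4 -0.71 and -0.33.

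Yy1-/- Smc3+/- against Yy1-/- compares libraries with and without the Smc3 label. Yy1 mRNA reached 12.2 CPM in Yy1-/- and 4.45 in Yy1-/- Smc3+/-, and Yy1-/- replicates 1 and 2 were high in monocyte markers. The part of these differences was not tested. In this comparison 0 of the 78 members were called by edgeR, as were 0 by DESeq2. An unadjusted edgeR p under 0.05 was found for 0 members and for 6.46% of all tested genes. In 0 members did the libraries of the 2 genotypes not overlap, where 1.13% of all tested genes lay wholly higher and 0.883% wholly lower. Over all tested genes 6 were called, or 0.036%, all of them higher. The smallest unadjusted p of a member was 0.0695 (edgeR adjusted p = 0.76). The log2 fold change was below 0 for 76 members and the median was -0.16, where 49.9% of all tested genes lay below 0. The median was -0.04 with the length trend removed. The 95% intervals of the members had a median from -0.49 to 0.18, and all 78 lay within -1 and 1. For Sdha the interval was -0.17 to 0.47, and for Uqcrq it was -0.55 to 0.19.

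The letters of YY1, NRF1 and ETS factors were searched on both strands of the start windows. AANATGGC (YY1) was found in 17 of 71 member windows, or 23.9%, against 8.0% of the windows of tested genes and 6.1% of all 32851 windows. The NRF1 letters, GCGC, any base and then TGCGC, were found in 25.4% of member windows, against 9.1% and 4.6%. CCGGAAG (ETS, the family of GABPA) was found in 22.5%, against 16.3% and 8.9%. The 17 members with YY1 letters had a median log2 fold change of 0.33 in Yy1-/-, with 7 called higher and 1 lower. The 49 members with a window but without them had 0.57, with 30 higher and 2 lower. A match is a description of letters and not a bound site.

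The 8 genes whose start codon lies inside AAGATGGC, printed above, were grouped after their values were seen. Of them Atp5j2, subunit f of complex V, rose (0.66), Ndufc1 fell (-0.74), and the median was 0.13, against 0.57 in the other 58 members with a window. The other 6 were not called: Ndufs4 read 0.41, Ndufa9 0.33, Ndufs6 0.32, Ndufb8 -0.05, Ndufs7 -0.11 and Ndufa3 -0.17. The median effective lengths were alike, 364 and 419 bases. With the length trend removed the medians were -0.34 and 0.12. In that fit 1 of the 8 genes was called higher (Ndufs4) and 4 lower (Ndufa3, Ndufb8, Ndufc1 and Ndufs7). Of the other 58 members 18 were called higher (31%) and 7 lower (12.1%) in it. Among all tested genes with a window, 383 hold the same letters within the first 50 bases, a count made without regard to their start codon. With the length trend removed, 18.3% of these 383 genes were called higher and 26.9% lower, against 19.5% and 20.8% of the 11028 others. As first fitted, the 383 had a median of -0.16, with 15.7% called higher and 24.5% lower, against -0.03, 17.8% and 20.7% for the others. In Yy1-/- Smc3+/- the members with the letters had a median of -0.05 and the other 58 had 0.39.

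**Figure D5:**
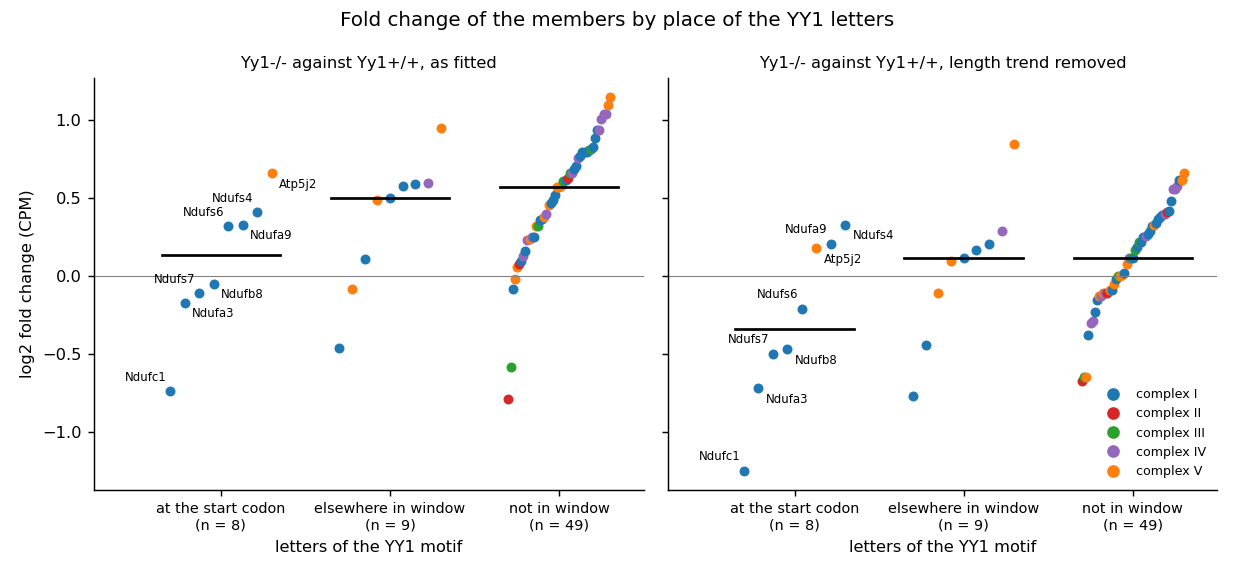
Log2 fold change in Yy1-/- against Yy1+/+ (y axis) of the 66 members with a start window, by place of the YY1 letters (x axis), as fitted (left) and with the length trend removed (right). Points are genes coloured by complex, and lines are medians. Genes with the letters at the start codon have a median of 0.13 as fitted, and those without them in the window 0.57.

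Of the 13 subunit genes of the mitochondrial genome, 2 rose and 0 fell in Yy1-/- (median log2 fold change 0.26). The 15.4% called higher is near the 16.3% of all tested genes. Of the 13, 1 rose in Yy1-/- Smc3+/-. mt-Nd1, a complex I subunit, read 271, 196, 218 and 289 CPM in Yy1+/+ and 407, 591, 618 and 534 in Yy1-/-, with no overlap, and rose by 1.14 ± 0.23 SE (edgeR adjusted p = 0.00247). mt-Nd2 rose by 0.77 (edgeR adjusted p = 0.0273). Their summed level was 2240 to 4950 CPM in Yy1+/+, 2660 to 4600 in Yy1-/- and 2980 to 5440 in Yy1-/- Smc3+/-. Within Yy1-/-, replicate 1 had the lowest mitochondrial sum and the highest level of most nuclear members. The difference between the nuclear and mitochondrial sets was not tested.

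Genes that help to build the complexes were called in small numbers in Yy1-/-. Of 19 tested assembly factors of complex I, 3 rose and 3 fell: Ndufaf7 (0.81), Foxred1 (0.47) and Tmem70 (0.42) against Tmem126b (-1.09), Dmac2 (-0.64) and Ndufaf6 (-0.85). Of 11 factors for complexes II and III, 3 rose and 0 fell: Uqcc2 (0.68), Sdhaf1 (0.58) and Hccs (0.47). Of 24 for complex IV, 5 rose and 1 fell, among them Cox18 (0.92), Cmc2 (0.90), Surf1 (0.84) and the copper chaperone Cox17 (0.73), against Cox20 (-1.0). Of 3 for complex V, Atpaf2 rose (0.53). The shares of these lists called higher lay between 15.8% and 33.3%, where 16.3% of all tested genes were called higher. The shares called lower were 15.8% for complex I, 4.17% for complex IV and 0% for the other lists, where 18.8% of all tested genes were called lower. Among 19 further subunits and electron carriers 5 rose and 2 fell, with Coq3 (1.03), Cox6a2 (1.69), Coq9 (0.51) and Etfa (0.47) higher and Coq8a (-1.40) and Coq4 (-1.41) lower. Coq3, Coq4, Coq8a and Coq9 all serve the making of ubiquinone, the carrier between complexes I or II and III.

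Of 29 tested genes of mitochondrial transcription and its nuclear regulators, 4 rose and 5 fell in Yy1-/-, Yy1 itself among them. These shares, 13.8% and 17.2%, lie near the 16.3% and 18.8% of all tested genes. The 3 coactivator genes of the PGC-1 family all fell in Yy1-/-. Ppargc1a had 209, 167, 168 and 210 counts in Yy1+/+ (2.64 to 4.73 CPM), 0, 0, 0 and 21 in Yy1-/- and 0 in all 4 Yy1-/- Smc3+/- libraries. Against a floor of 3 counts over the group, 0.018 CPM, it was at least 207-fold lower in Yy1-/- Smc3+/-. The single Yy1-/- library with Ppargc1a reads was replicate 4, which also kept the most Yy1 reads. Ppargc1b fell by 1.92 on the log2 scale, from 9.57 to 16.4 CPM in Yy1+/+ to 2.52 to 5.16 in Yy1-/- (edgeR adjusted p = 0.000267). Pprc1 fell by 0.92 with overlapping libraries (edgeR adjusted p = 0.0166) and was not called in Yy1-/- Smc3+/-, at -0.29 (edgeR adjusted p = 0.442). Polrmt, the mitochondrial RNA polymerase, fell by 0.68, also with overlapping libraries (edgeR adjusted p = 0.00794). Gabpb2, a partner of the ETS factor GABPA, rose by 1.12 with overlapping libraries (edgeR adjusted p = 0.00694). Ssbp1 rose by 0.53 (edgeR adjusted p = 0.0195), Mterf2 by 0.73 (edgeR adjusted p = 0.046) and Pparg by 2.76 (edgeR adjusted p = 0.0154). Pparg was highest in the 2 libraries with the most monocyte marker reads, at 19.3 and 12.6 CPM, against 0.44 to 9.08 in the other 10.

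Some members share sequence with near-identical copies or with a gene on the other strand. Expected counts were whole in every library for 60 of the 78 tested members and not whole in all 12 libraries for 11, among them Ndufs3, Ndufs5, Atp5l, Atp5g1 and Atp5g2. The levels of these 11 depend on how reads were divided between copies. Ndufb11 shares 12.9% of its exon bases with Rbm10 on the opposite strand, and Atp5f1 shares 8.2% with Wdr77. Without strand, reads from such stretches cannot be told apart.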

How the data were processed

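RNA from sorted LSK cells of 12 libraries was sequenced, and RSEM 1.3.0 and STAR 2.5.2b on mm10 are named in the submitters' processing notes. The deposited gene tables hold expected counts, TPM, FPKM and effective lengths per gene, per the file headers. FPKM values, scaled by the authors to length and depth, were not used. Expected counts are the authors' estimated counts and were rounded here to whole numbers. Symbols came from GENCODE M21, and start windows from RefSeq GRCm38.p6. Genes with low counts were left out with filterByExpr of edgeR 4.0.16 (minimum count 10, minimum total 15). Library sizes were scaled by TMM, and all 12 libraries entered one quasi-likelihood fit (glmQLFit, glmQLFTest, R 4.3.3) with 3 contrasts. P-values were adjusted by Benjamini-Hochberg over all tested genes, and adjusted p under 0.05 is a call. The fit was tested on simulated counts. Alternatives used DESeq2 1.42.0, limma 3.58.1 on log2(TPM + 1) and log2(TPM + 0.1), other filters, length offsets, a removed length trend and fewer libraries. A fold change on the log2(TPM + pseudocount) scale understates changes of low genes. Counts were called whole within 1e-06. Samples were grouped by the genotype in the labels.

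The genes and lists were chosen with earlier results of these data known. Named genes are the members called lower, the 4 with the smallest p of each complex, the core and F1 subunits, complex II, the Cox7a and Atp5g sets, members under 1 CPM, and up to 4 genes per direction of each other list. The genes grouped by letters at the start codon, and further list genes, were chosen after their values were seen. The values of 1 gene that this rule names are not reported here.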

Additional observations from a re-analysis of the deposited data

Results flagged for a closer look

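In 4 of 141 sets of 4 libraries that were checked, 1 library stood apart from the other 3 by a gap above Dixon's 95% critical value. For independent sets chance gives about 1 in 20. The sets checked share libraries and are not independent, so the number found cannot be weighed against it. In Yy1+/+, replicate 2 had the lowest Ndufs1 level, 141 CPM, with a gap of 0.83 of the range, and the highest Uqcrc1 level, 871 CPM, with a gap of 0.937. In Yy1-/-, replicate 2 had the lowest Atp5b level, 1243 CPM, with a gap of 0.889, and the lowest Atp5e level, 48.4 CPM, with a gap of 0.964. Yy1-/- replicate 2 was the lowest of its genotype for 72 of 78 members.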

How the results depend on the processing

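Among the named members called in Yy1-/-, Uqcr10 alone changed direction under the 24 alternatives, at -0.003 with the length trend removed. In that fit 4 called members outside the naming rule also lay below 0: Uqcrb (-0.07), Cox6a1 (-0.13), Atp5h (-0.11) and Atp5k (-0.09). Effective length offsets gave 41 members higher and 4 lower in Yy1-/- and 28 and 5 in Yy1-/- Smc3+/-. The shares of all tested genes called with these offsets are not given here. On log2(TPM + 1) and log2(TPM + 0.1) alike, 28 members were called higher and 9 lower in Yy1-/-, and 13 lower in Yy1-/- Smc3+/-. Of all 16649 tested genes, log2(TPM + 1) called 1445 higher and 4327 lower in Yy1-/-, and 3480 lower in Yy1-/- Smc3+/-. With the length trend removed, 23 were higher and 12 lower in Yy1-/-, beside 17.7% and 19.2% of all tested genes. In Yy1-/- Smc3+/- 15 were lower in that fit, beside 17.9% of all tested genes. On both log2 TPM scales the Yy1-/- medians were 0.24 for the members and 0.22, -0.45, 0.23, 0.37 and 0.23 for complexes I to V. With the length trend removed they were 0.12 for the members and 0.18, 0.14, 0.26 and 0.01 for complexes I, III, IV and V. In Yy1-/- Smc3+/- the medians on log2 TPM were 0.17 for the members and 0.19, 0.31 and 0.13 for complexes III, IV and V. With the length trend removed they were 0.10 for the members and 0.13, 0.08, 0.18 and 0.03 for complexes I, III, IV and V.

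Without the libraries with residual Yy1 reads 28 members were called higher in Yy1-/-. The older quasi-likelihood method, chosen after seeing the data, called 2 lower. Without Yy1-/- replicates 1 and 2, also chosen after seeing the data, 1 was called lower in Yy1-/- and 7 in Yy1-/- Smc3+/-. The cause of these shifts was not tested, and in the fits with fewer libraries the smaller number was not told apart from other causes. Leaving out 1 library at a time gave 32 to 53 members higher and 1 to 5 lower in Yy1-/-, and 22 to 37 higher and 2 to 5 lower in Yy1-/- Smc3+/-. The shares of all tested genes called with fewer libraries, or by the older method, are not given here. In Yy1-/- Smc3+/- against Yy1-/- 0 members were called under each alternative run. No paired analysis was possible because the labels give no replicate numbers that pair libraries. Depth limits only Cox7a1 among the members.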
